A study of Mus musculus with 4 samples.

Results

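The genes described here are the semaphorins, a family of secreted and cell-surface guidance proteins, with their receptors, the plexins and neuropilins. They were chosen by symbol among the protein-coding rows of a table of raw read counts. The rule took Sema3a to Sema7a, Plxna1 to Plxnd1, Nrp1 and Nrp2, and found 31 of 55487 genes, which are 20 semaphorins, 9 plexins and 2 neuropilins. The RNA was that of tumours grown from AXT, a mouse osteosarcoma line made by overexpressing c-MYC in bone marrow stromal cells that lack Ink4a/Arf. All groups therefore shared that background, and they differed in Hif1a, the gene of the oxygen-regulated transcription factor HIF-1alpha. One group was mock-treated AXT (labelled WT, 1 library) and the other was HIF-1alpha knockout AXT, 3 libraries of the lines named AXT1-1, AXT1-2 and AXT2 in the labels. For each tumour, cells embedded in matrigel were placed in C57BL/6scid mice, which lack T and B cells but keep macrophages, vessels and other host cells, and the tumour was taken on day 1. The sources used here do not give the age of the mice or the number of animals per library, and do not say whether each knockout line is 1 clone.

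The knockout libraries are called c11, c15 and c22, after their columns in the table. The sources used here do not give which labelled line each column holds, and each was treated as a library of 1 group. Total counts ran from 12383719 (mock) to 13193264 (c15), so that 3 counts corresponded to 0.227 to 0.242 CPM (the count divided by the total of its column, times 1000000). That is the limit a count of 0 allows, for counting error only. Hif1a itself had 107 (mock), 104 (c11), 98.7 (c15) and 22.3 CPM (c22), and the fit gave a log2 fold change of -0.52 (SE 0.78, edgeR adjusted p = 1.00). A gene-level count does not show whether a functional protein was made, so the labels of c11 and c15 were not checked by it. Of 12 textbook hypoxia genes, all 12 were below mock in c11, c15 and c22, where 22.5% of all genes tested were. Their median log2 fold change was -2.44. These 12 were chosen with earlier results of these data known, so they do not check the labels either. The osteoblast and osteosarcoma markers were detected (10 of 10 in mock, 9 of 10 in c11 and 10 of 10 in c15 and in c22). Their summed level was 4289 CPM for mock beside 3482 to 8780 CPM across the knockouts. Of the highest sum, that of c22, Col1a1 made up 4700 CPM and Col1a2 3398 CPM. All 3 knockout libraries were below mock for 6 of the 10 markers, beside 22.5% of all genes tested. They were above mock for 1, beside 21.0% of all genes, and the median log2 fold change was -0.80.

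Semaphorins bind plexins, single-pass receptors whose intracellular domain acts on small GTPases of the Ras and Rap families and thereby changes adhesion and the actin skeleton. Class 3 semaphorins are secreted, and most of them need a neuropilin as the ligand-binding co-receptor, while classes 4 to 7 are anchored to the membrane and mostly bind plexins directly. Neuropilins also bind growth factors of the VEGF family. In bone, Sema3a is known as a factor of osteoblasts that restrains bone-resorbing osteoclasts, and Sema4d as a factor of osteoclasts that restrains osteoblasts through plexin B1.

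To show the regulatory sequence of the genes on which the results turn, the RefSeq promoter windows (build GRCm38.p6, 250 bases before to 50 bases after the annotated start) of the 3 semaphorin genes with the lowest fold changes and of the most abundant receptor gene follow. Each is written 5′ to 3′ in lower case, and capitals mark the core of the hypoxia response element, searched as ACGTG and GCGTG on both strands. ACGTG also lies inside CACGTG, the E-box bound by MYC, so the searches overlap.
Sema3d, chr5:12382916-12383215, plus strand: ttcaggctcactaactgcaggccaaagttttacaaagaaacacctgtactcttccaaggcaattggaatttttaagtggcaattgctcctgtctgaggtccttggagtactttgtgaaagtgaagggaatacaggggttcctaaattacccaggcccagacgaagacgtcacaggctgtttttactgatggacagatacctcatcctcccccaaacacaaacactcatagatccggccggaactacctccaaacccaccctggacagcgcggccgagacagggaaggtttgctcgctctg
Sema3a, chr5:13396534-13396833, plus strand: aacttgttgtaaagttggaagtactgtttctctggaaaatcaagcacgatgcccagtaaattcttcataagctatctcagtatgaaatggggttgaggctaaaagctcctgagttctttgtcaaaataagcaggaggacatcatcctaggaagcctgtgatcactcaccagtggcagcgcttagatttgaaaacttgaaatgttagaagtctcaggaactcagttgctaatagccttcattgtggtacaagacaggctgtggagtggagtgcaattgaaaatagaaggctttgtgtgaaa
Sema5a, chr15:32244563-32244862, plus strand: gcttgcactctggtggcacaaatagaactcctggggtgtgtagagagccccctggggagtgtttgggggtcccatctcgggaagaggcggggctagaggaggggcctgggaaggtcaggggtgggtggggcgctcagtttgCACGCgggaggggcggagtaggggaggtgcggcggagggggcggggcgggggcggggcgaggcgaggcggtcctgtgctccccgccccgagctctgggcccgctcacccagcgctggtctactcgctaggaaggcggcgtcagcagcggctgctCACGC
Nrp2, chr1:62703067-62703366, plus strand: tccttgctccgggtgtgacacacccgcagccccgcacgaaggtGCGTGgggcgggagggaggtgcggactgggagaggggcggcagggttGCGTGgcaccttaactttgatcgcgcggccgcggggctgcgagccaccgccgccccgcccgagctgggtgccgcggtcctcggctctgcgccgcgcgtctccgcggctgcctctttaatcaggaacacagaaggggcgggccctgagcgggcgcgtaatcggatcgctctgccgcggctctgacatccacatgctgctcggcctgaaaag
The windows of Sema3d and Sema3a held 0 matches, and those of Sema5a and Nrp2 held 2 each. The Sema3a window lies inside the longer span that the deposited table gives for the gene, and the Sema3d window ends before its span begins. Of the 31 genes, 26 had a window, and 18 of these 26 had a match in at least 1 window (69.2%). Among 27025 genes with a window, 46.7% had one. Counted by window, 20 of 37 windows of these genes (54.1%) and 43.8% of all 32851 windows held a match. Genes with a match lay on either side of mock: Plxnd1 had 5 matches and a log2 fold change of 0.51, and Sema5a had 2 matches and a log2 fold change of -2.05. A match is a string of letters in this window and was not tested for binding. Plxna1, Plxna4, Sema3b, Sema3f and Sema6a had no window in that table.

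Compared per kb of merged exons, the most abundant transcripts of the family were receptors. Nrp2 stood first in mock (79.2 CPM per kb), c11 (126 CPM per kb) and c15 (47.6 CPM per kb) and second to Plxnb2 in c22 (22.9 against 36.6 CPM per kb). Plxnb2 was at 52.4 CPM per kb in mock, 49.4 in c11 and 33.5 in c15, and Plxna1 held rank 3 in all 4 libraries with 12.1 to 20.3 CPM per kb. The mock tumour had Sema3a (13.6 CPM per kb), Sema3d (10.95 CPM per kb), Sema4d (9.82 CPM per kb) and Sema5a (9.24 CPM per kb) at ranks 4 to 7. Of these, Sema3d was outside the first 7 ranks in each knockout library, as was Sema3a. At the low end, Sema5b had 0 counts in all 4 libraries, and Sema4f, Plxna4 and Plxnb3 had at most 6 counts in any of them. These 4 genes and Sema3g (3 to 10 counts) did not pass the filter on low counts, which left 26 of the 31 genes for the test.

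**Figure D1:**
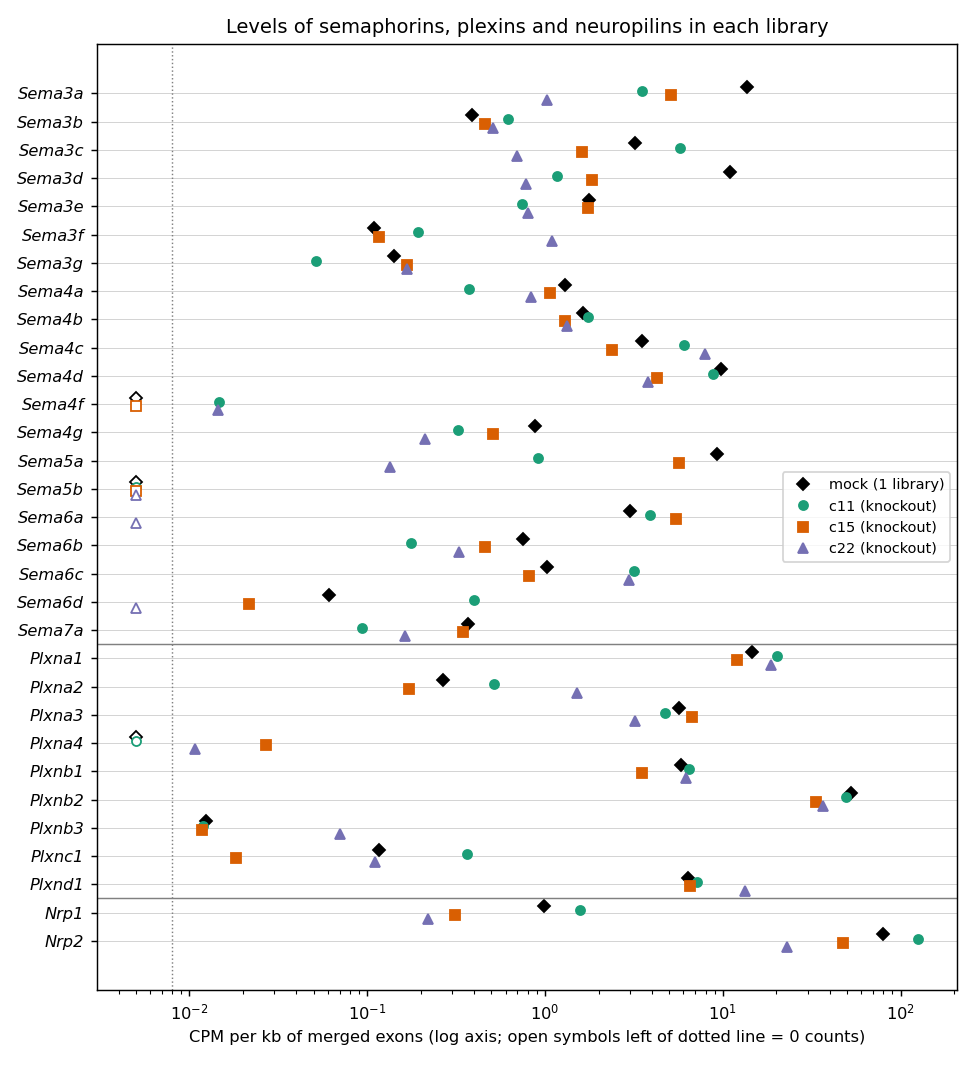
Level of each of the 31 genes in CPM per kb of merged exons (log axis) in mock (diamonds) and in c11, c15 and c22, with open symbols for 0 counts. Nrp2 and Plxnb2 lie furthest to the right, Sema3d and Sema3a in mock lie to the right of the 3 knockout libraries, and Sema6a has an open symbol for c22.

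Knockout and mock tumours were compared to see which transcripts differ without HIF-1alpha on day 1. Of all 15706 genes that entered the quasi-likelihood test of edgeR, 0.00637% were called lower in the knockout libraries and 0.0% higher at an adjusted p of 0.05. Of the 26 genes of the family tested, 0 were called in either direction. At an unadjusted p under 0.05, 2 of the 26 were lower (Sema3d and Sema3a) and 0 higher, against 2.56% and 1.12% of all genes. DESeq2 called 1 of the 26 lower (Sema3d) and 0 higher, against 0.42% and 0.306% of all genes. The single mock library had no replicate, and the tests assumed that it varied as the knockout libraries did.

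All 3 knockout libraries lay below mock for 10 of the 26 genes, where 22.5% of all genes tested did, and above mock for 3, where 21.0% did. The 10 were Sema3a, Sema3d, Sema3e, Sema4a, Sema4d, Sema4g, Sema5a, Sema6b, Sema7a and Plxnb2. Some margins were very small. Before division by the column total, Sema7a had 15 counts in both mock and c15, and Sema3e had 204 in mock and 213 in c15. The 3 above mock were Sema3b, Sema3f (7 counts in mock and 8 in c15) and Plxnd1. All 3 ratios have the same mock library as denominator. Without c11, 16 genes were below mock in both remaining libraries, and without c15, 8 were above it. The median log2 fold change of the 26 genes was -0.23, beside 0.05 for all genes tested. It was -0.47 without c11, -0.13 without c15 and -0.03 without c22. By role, the median was -0.69 for 17 semaphorins and 0.23 for 7 plexins, and the neuropilins were at -0.49 and -0.28.

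**Figure D2:**
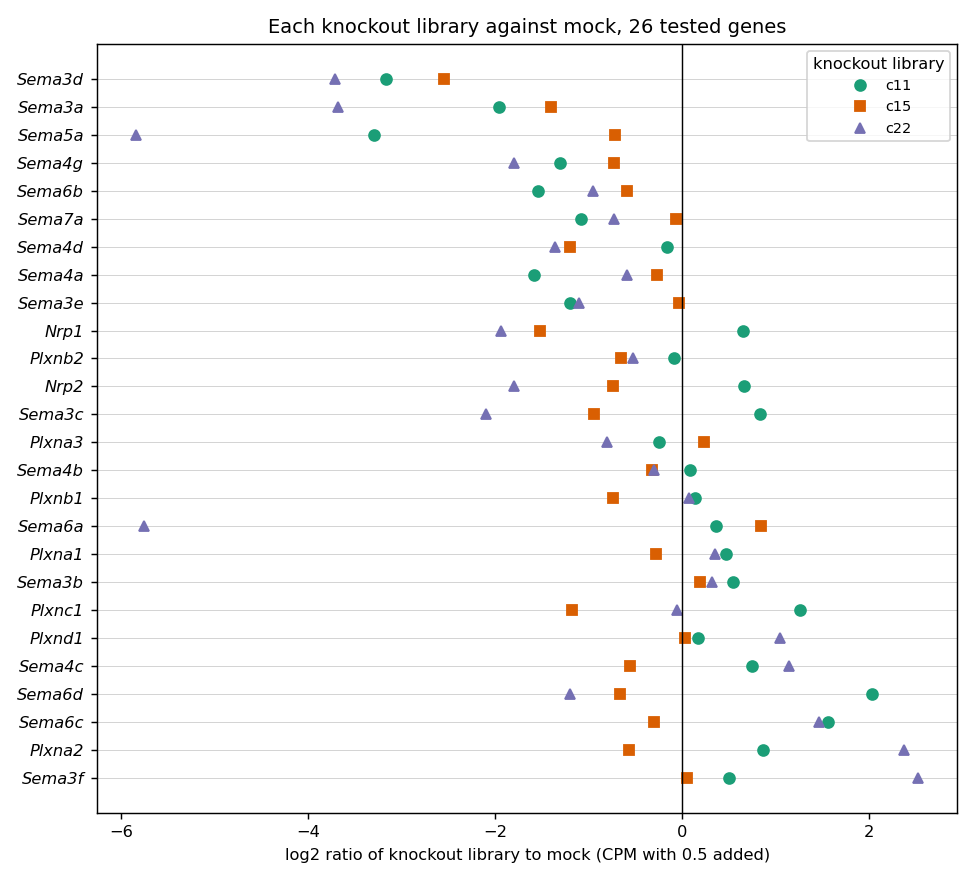
log2 ratio of c11, c15 and c22 to mock (CPM with 0.5 added) for the 26 genes tested, ordered by fitted log2 fold change. Sema3d and Sema3a lie left of 0 in all 3 libraries by at least 1.40, while most of the other genes have libraries close to 0 or on both sides of it.

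The secreted class 3 ligands held the lowest fold change of the family. The 7 genes of this class summed to 30.2 CPM per kb in mock and to 12.02, 11.1 and 5.08 CPM per kb in c11, c15 and c22. That was a 3.22-fold difference between mock and the knockout mean. Most of the mock sum was Sema3a (13.6 CPM per kb) and Sema3d (10.95 CPM per kb). Their knockout means were 3.22 and 1.26 CPM per kb. Sema3d, a guidance ligand known from heart and vessel development, had 94.2 (mock), 10.1 (c11), 15.8 (c15) and 6.73 CPM (c22). All 3 knockout libraries lay far below mock, and they differed among themselves by less than any of them differed from it. The mean of the knockout libraries was 10.9 ± 4.57 CPM (SD, n = 3), 8.67-fold below mock. The fitted log2 fold change of Sema3d was -3.11 (SE 0.46, edgeR adjusted p = 0.25), and the adjusted p ran from 1e-04 with DESeq2 to 0.785 without c11 over the alternatives.

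Sema3a, the prototype repulsive ligand of this class, had 189 (mock), 48.4 (c11), 71.3 (c15) and 14.3 CPM (c22). The groups did not overlap, and c22 was lowest. The knockout mean was 44.7 ± 28.7 CPM, 4.23-fold below mock (log2 fold change -2.08, SE 0.72, edgeR adjusted p = 1.00, unadjusted p = 0.029). Per kb, Sema3a made up 22.1% (mock), 9.19% (c11), 15.4% (c15) and 4.52% (c22) of the summed semaphorin level, and Sema3d made up 17.7% in mock and 3.1% to 5.5% in the knockout libraries.

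The other class 3 genes did not share that pattern. Sema3e, which signals through plexin D1 without a neuropilin, had 16.5 (mock), 6.89 (c11), 16.1 (c15) and 7.42 CPM (c22), so that c15 was close to mock (log2 fold change -0.69, SE 0.61). Sema3c was at 22.8 CPM in mock and ran from 41.1 CPM in c11 through 11.6 CPM in c15 to 4.97 CPM in c22, with mock inside that range (log2 fold change -0.25, SE 1.04). Sema3f, a ligand that prefers neuropilin 2, had 0.57 (mock), 1.01 (c11), 0.61 (c15) and 5.66 CPM (c22), and only c22 stood clearly apart from mock. The log2 fold change of Sema3f was 2.09 (SE 1.73), and 0.50 without c22. Sema3b had 1.86 CPM (mock) against 2.20 to 2.94 CPM across the knockouts (log2 fold change 0.45, SE 0.65).

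Sema3d, Sema3a, Sema3e and Sema3c are neighbours on mouse chromosome 5 (GRCm38), all on the plus strand. Sema3d spans chr5:12383385-12588948 and Sema3a chr5:13125414-13602565. Sema3e spans chr5:14025276-14256689 and Sema3c chr5:17574281-17730268. After these values were seen, the other tested genes from 5 Mb before Sema3d to 5 Mb after Sema3c were examined. Before Sema3d, 15 of 16 tested genes were below mock in c11, c15 and c22, with a median log2 fold change of -2.68. In that stretch Dbf4, whose product activates a kinase needed to start DNA replication, had 987 CPM (mock) against a knockout mean of 160 ± 2.80 CPM (SD, n = 3). The nearest of these genes to Sema3d, 9330182L06Rik, lay 2902 kb away and had 119 CPM (mock) against a knockout mean of 13.5 ± 4.28 CPM. Gm43719, which starts 1.47 kb after the end of Sema3a, had a log2 fold change of -2.80. After Sema3a, 4 of 27 tested genes outside the family were below mock in all 3 knockout libraries and 8 were above, with a median of 0.13. Over all genes tested, 22.5% were below mock in the 3 knockout libraries. The exception before Sema3d was Gm7332, with a log2 fold change of -0.26, and Dmtf1 nearby had one of -0.70. No tested gene lay between 9330182L06Rik and Sema3d. Abcb1a and Abcb1b in this stretch are near copies of each other, so their counts are uncertain. The low value of Dbf4 was known from earlier results of these data. Whether the low values before Sema3d bear on those of Sema3d and Sema3a was not tested.

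**Figure D3:**
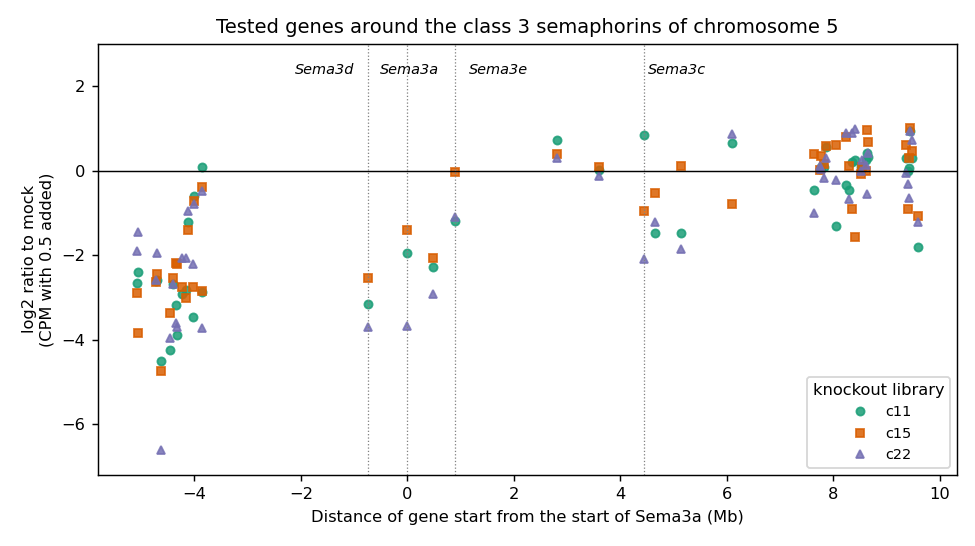
log2 ratio to mock (CPM with 0.5 added) of the tested genes around Sema3a, by the distance of each gene's start from the start of Sema3a in Mb, with 1 symbol for each of c11, c15 and c22 and dotted lines at the class 3 semaphorins. Most genes left of Sema3d lie below 0, as do Sema3d and Sema3a, with no tested gene between 9330182L06Rik and Sema3d. Genes right of Sema3e lie on both sides of 0.

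Among the membrane-bound semaphorins, Sema5a, a ligand with thrombospondin repeats that can signal through plexin A and B receptors, varied widely between libraries. It had 173 (mock), 17.1 (c11), 105 (c15) and 2.52 CPM (c22). All 3 knockout libraries were below mock, but the highest of them was 41.8 times the lowest, and the log2 fold change of -2.05 had an SE of 1.43 (edgeR adjusted p = 1.00). Without c15 it was -4.15. The head-to-head noncoding gene Snhg18, which ends 0.15 kb before Sema5a starts, had 13.4 (mock), 3.87 (c11), 6.06 (c15) and 0.46 CPM (c22), in the same order of libraries. The next tested gene on the other side, Gm32618, had 2.50 CPM (mock) against 1.29 to 3.98 CPM across the knockouts.

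Sema6a, a transmembrane ligand of plexins A2 and A4, was at 26.4 CPM in mock, 34.2 CPM in c11 and 48.1 CPM in c15, and had 0 counts in c22. The c22 level was at least 115-fold below mock (floor of 3 counts in that library). The fitted log2 fold change of 0.05 (SE 1.67) averages over c11 and c15 above mock and c22 below it. Commd10, which ends 1.31 kb before Sema6a, had 35.9 (mock) and 38.2 CPM (c22). Sema6d also had 0 counts in c22, but it was at only 0.65 CPM in mock. The same floor therefore put its c22 level at least 2.82-fold below mock. It was at 4.18 CPM in c11 and 0.23 CPM in c15. Sema6c was above mock in c11 and c22, with 6.06 (mock), 18.9 (c11), 4.85 (c15) and 17.6 CPM (c22) (log2 fold change 1.19, SE 0.87). Sema6b had 2.99 CPM (mock) against 0.70 to 1.82 CPM across the knockouts (log2 fold change -1.22, SE 0.71).

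Class 4 was led per kb by Sema4d in mock, c11 and c15, and by Sema4c in c22 (7.94 against 3.79 CPM per kb). Sema4d, a ligand of plexin B1 with roles in immune cells and bone, had 75.4 (mock), 67.6 (c11), 32.7 (c15) and 29.1 CPM (c22). The c11 library was near mock and the other knockout libraries were below it (log2 fold change -0.81, SE 0.52, edgeR adjusted p = 1.00). Sema4g had 7.59 CPM (mock) against 1.83 to 4.40 CPM across the knockouts (log2 fold change -1.33, SE 0.61), and Sema4a, known from immune cells, was at 7.03 CPM against 2.01 to 5.76 CPM (log2 fold change -0.77, SE 0.67). Sema4c, a ligand of plexin B2, had 16.2 (mock), 27.7 (c11), 10.9 (c15) and 36.5 CPM (c22), on both sides of mock. Sema4b had 9.29 CPM (mock) against 7.35 to 9.91 CPM across the knockouts. Sema7a, which is anchored by a lipid and binds integrins and plexin C1, was at 1.21 CPM against 0.31 to 1.14 CPM.

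Host cell markers also differed in level between mock and knockout libraries, and 0 of them were called by edgeR or DESeq2. Among all genes tested, 22.5% were below mock in all 3 knockout libraries, the share to set beside the marker counts here. Of 10 macrophage markers, 9 were below mock in all 3 knockout libraries. The summed level of the 10 was 788 CPM for mock beside 245 to 426 CPM across the knockouts. Lyz2 alone had 554 CPM for mock beside 142 to 266 CPM, and Cd68 had 26.1 CPM beside 19.3 to 26.5 CPM across the knockouts. All 8 skeletal muscle markers were below mock in all 3, with sums of 108 CPM for mock beside 1.67 to 22.6 CPM across the knockouts. Endothelial markers were low in every library (summed level 16.2 CPM in mock, 8.41 to 14.2 CPM across the knockouts), with Tie1, Esam and Robo4 at 0 counts in all 4. Erythroid markers summed to 116 CPM for mock beside 1.63 to 41.1 CPM across the knockouts, and the 5 tested were below mock in all 3. Fibroblast and fascia markers summed to 120 (mock), 24.0 (c11), 95.9 (c15) and 101 CPM (c22), with 4 of 7 below mock in all 3. Of the c22 sum, Pdgfra alone made up 63.8 CPM, against 15.2 CPM in mock. Each of the other fibroblast and fascia markers was below mock in c22. The neutrophil sum was 10.4 CPM for mock, inside the knockout range of 4.73 to 17.3 CPM. Markers of Schwann cells and nerve summed to 29.5 CPM for mock beside 14.2 to 73.2 CPM across the knockouts. In tumour RNA, fewer cells of a type and less RNA per cell cannot be told apart, and the part of host cells in the values of Sema4d, Sema4a and the receptors was not tested.

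**Figure D4:**
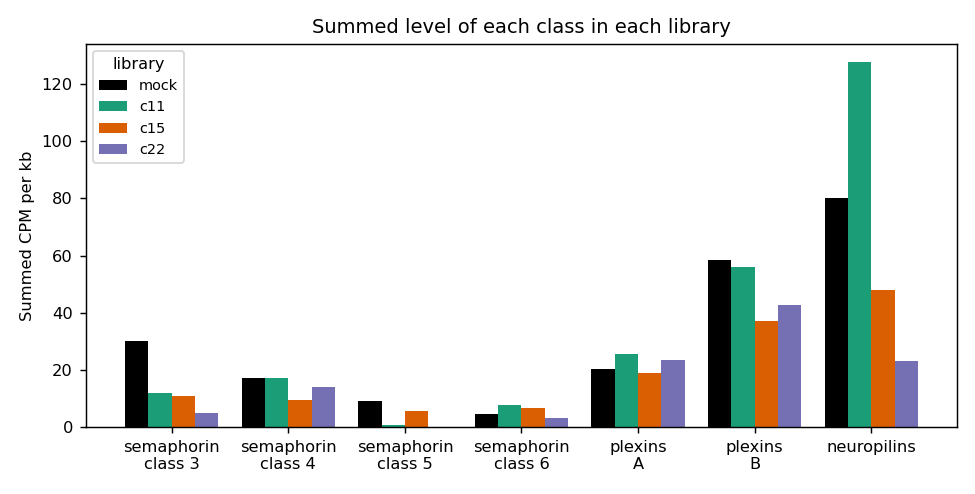
Summed level (CPM per kb of merged exons, bars from 0) of each class in mock, c11, c15 and c22. Class 3 semaphorins summed to 30.2 in mock, mostly Sema3a (13.6) and Sema3d (10.95), and to 12.02, 11.1 and 5.08 in the knockout libraries. Plexins A ran from 19.0 to 25.6 over the 4 libraries and neuropilins from 23.1 to 127. Sema7a, Plxnc1 and Plxnd1, each the single gene of its class, are not drawn.

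Plexins are the signalling receptors, and 0 of the 7 tested passed an unadjusted p of 0.05 in edgeR. Plxnb2, the most abundant of them, had 405 (mock), 381 (c11), 259 (c15) and 283 CPM (c22). All 3 knockout libraries were below mock, c11 only slightly (log2 fold change -0.40, SE 0.32, edgeR adjusted p = 1.00). Per kb, Plxnb2 made up 61.5% of the summed plexin level in mock and 45.9% to 55.5% in the knockout libraries. Plxna1, a common partner of neuropilins for class 3 ligands, had 132 (mock), 184 (c11), 109 (c15) and 170 CPM (c22), on both sides of mock (log2 fold change 0.23, SE 0.39). Plxnb1, the receptor of Sema4d, had 56.1 CPM (mock) against 33.6 to 61.9 CPM across the knockouts.

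Plxnd1, the receptor of Sema3e, had 46.7 (mock), 52.5 (c11), 47.8 (c15) and 97.4 CPM (c22). The knockout libraries were all above mock, but c11 and c15 only by a small amount, and the log2 fold change of 0.51 (SE 0.52) was 0.10 without c22. Plxna2 had 4.603 (mock), 8.83 (c11), 2.96 (c15) and 26.1 CPM (c22), so that c22 alone stood far above mock (log2 fold change 1.46, SE 1.25, and 0.34 without c22). Plxna3 had 44.6 CPM (mock) against 25.3 to 52.8 CPM across the knockouts. Plxnc1, known mainly from immune cells, had 0.97 CPM (mock) against 0.15 to 3.02 CPM across the knockouts. Plxna1, Plxna4, Plxnb1 and Sema4c have exons that overlap annotated genes on the opposite strand, and the sources used here do not give whether strand was used in counting. Exons of Nrp1, Plxnc1 and Sema4a overlap annotated genes on the same strand (Mir1903, Gm48718 and Mir7011).

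Neuropilins were dominated by Nrp2, which made up 98.8% to 99.4% of their summed level per kb in the 4 libraries. Nrp2 had 938 (mock), 1491 (c11), 563 (c15) and 271 CPM (c22). Mock lay inside the range of the knockout libraries, the highest of which was 5.5 times the lowest (log2 fold change -0.28, SE 0.84). Nrp1 had 9.61 (mock), 15.4 (c11), 3.03 (c15) and 2.14 CPM (c22). The log2 fold change of Nrp1 was -0.49 (SE 1.07), with -1.87 without c11 and -0.07 without c22. Nrp1, Nrp2 and Sema3c had the same order of libraries, c11 above mock, then c15 and then c22, over only 4 libraries, which is a description. The log2 fold changes of Nrp2 and Sema3c were above 0 without c22 (0.12 and 0.20), and they were -1.16 and -1.44 without c11.

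The knockout libraries differed among themselves. For 10 of the 26 genes (38.5%), the highest knockout library was over 4 times the lowest (CPM with 0.5 added), and this held for 7.26% of all genes tested. The 10 were Nrp1, Nrp2, Plxna2, Plxnc1, Sema3a, Sema3c, Sema3f, Sema5a, Sema6a and Sema6d. Sema6d had 54 counts in c11 and at most 8 in any other library, and it did not pass the filter without c11. Its place among the 10 therefore rests on the library in which it was high. The median ratio of highest to lowest was 2.39 for the 26 genes and 1.61 for all genes. Of the 26 genes, 12 were highest in c11, 10 in c15 and 4 in c22, and c11 was lowest for 4 and c15 and c22 for 11 each. With 1 library per line, differences between lines had no test.

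The signalling partners of the family were read from a list of 60 genes: effectors of plexins, co-receptors, other ligands of neuropilins and proteases that process semaphorins. Of these, 52 passed the filter, 0 were called by edgeR in either direction, and DESeq2 called 2 higher (0.306% of all genes) and 0 lower (0.42% of all genes). Their median log2 fold change was 0.15, beside 0.05 for all genes. All 3 knockout libraries were below mock for 13 of the 52 (25.0%, beside 22.5% of all genes) and above for 16 (30.8%, beside 21.0% of all genes). At an unadjusted p under 0.05 in edgeR, 3 were higher, where 1.12% of all genes were, and 1 was lower, where 2.56% were.

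Rnd1, which encodes a small GTPase that binds the intracellular domain of plexins, had 1.53 (mock), 9.68 (c11), 11.1 (c15) and 11.5 CPM (c22). The knockout libraries lay close together and all above mock (log2 fold change 2.80, SE 0.62, edgeR adjusted p = 0.48, DESeq2 adjusted p = 0.00775). Mras, a GTPase of the Ras family, had 8.08 (mock), 38.5 (c11), 24.6 (c15) and 66.0 CPM (c22), with a log2 fold change of 2.42 (SE 0.71, edgeR adjusted p = 0.84, DESeq2 adjusted p = 0.0372). Adjusted p over the alternatives ran from 0.00775 to 1.00 for Rnd1 and from 0.0372 to 1.00 for Mras. The lowest of the effectors were Farp2, an exchange factor that binds plexins A, with 46.4 CPM (mock) against 6.12 to 38.2 CPM across the knockouts, and Dpysl3 of the collapsin response mediator family, with 375 (mock), 130 (c11), 375 (c15) and 173 CPM (c22). The median of the 30 effectors tested was 0.20.

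Of the co-receptors, Met, the receptor tyrosine kinase that associates with plexins B, had 47.0 CPM (mock) against 16.7 to 29.0 CPM across the knockouts (log2 fold change -0.97, SE 0.41, edgeR adjusted p = 1.00). Trem2, a myeloid receptor linked to plexin A1, was at 5.89 CPM against 1.32 to 2.52 CPM (log2 fold change -1.59, SE 0.59), beside the lower macrophage markers given above. Erbb2 had 18.2 CPM (mock) against 23.0 to 29.7 CPM across the knockouts, and Flt1, a VEGF receptor, was at 0.48 CPM against 1.32, 6.82 and 1.30 CPM in c11, c15 and c22.

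Other ligands of neuropilins included Pgf, the placental growth factor gene, with 0.48 (mock), 3.95 (c11), 3.79 (c15) and 5.43 CPM (c22), and a log2 fold change of 3.16 (SE 0.89, edgeR adjusted p = 0.78). Vegfc had 0.40 (mock), 4.80 (c11) and 1.07 CPM (c22), with 0 counts in c15, and its log2 fold change of 2.24 (SE 2.18) was 0.42 without c11. Vegfa had 113 CPM (mock) against 66.5 to 142 CPM across the knockouts, and Vegfb had 62.0 CPM against 56.2 to 65.3 CPM. Furin, which cleaves class 3 semaphorins, had 80.9 CPM (mock) against 85.9 to 111 CPM across the knockouts, and the related convertase gene Pcsk6 had 81.5 (mock), 12.6 (c11), 72.0 (c15) and 32.9 CPM (c22). Mmp14, a membrane protease that can shed Sema4d, had 114 CPM (mock) against 91.4 to 318 CPM across the knockouts, and Adam17 had 74.5 CPM against 44.6 to 69.7 CPM.

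**Figure D5:**
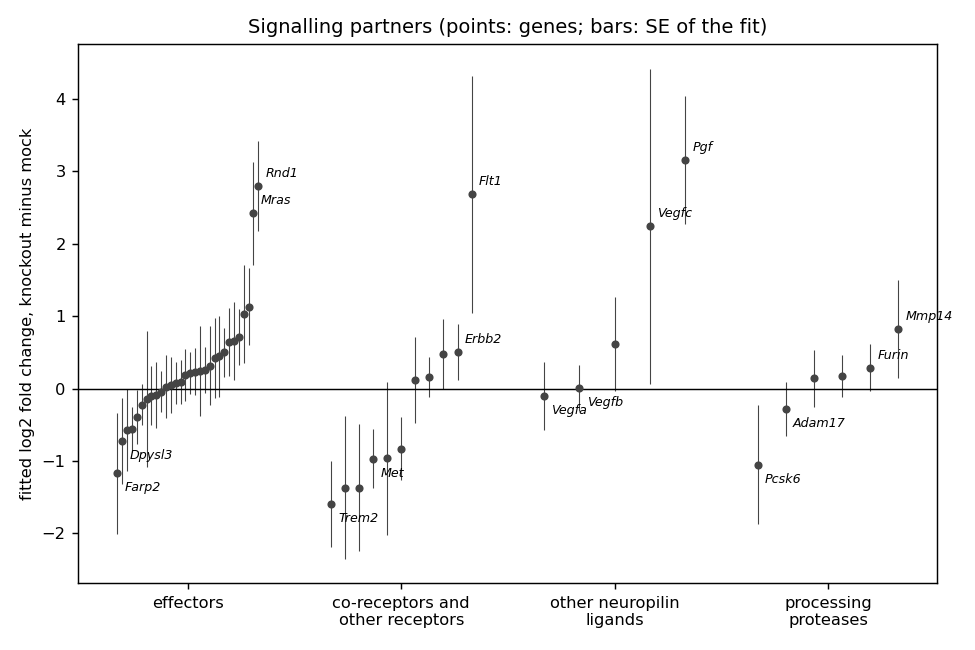
Fitted log2 fold change (knockout minus mock, edgeR) of the 52 tested signalling partners, with bars for the SE, in 4 groups, and labels on the genes named by rule. Of the 52 genes, 5 lie above 2 (Rnd1, Mras, Pgf, Flt1 and Vegfc), and the bars of Vegfc (2.18) and Flt1 (1.64) are the longest.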

How the data were processed

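The libraries were poly(A)-selected and prepared with a strand-keeping kit (labels' protocols). The authors deposited raw counts, with a row for each Ensembl gene. The submitters' processing notes name GRCm38, HISAT2 2.1.0, featureCounts 1.6.3, Trimmomatic 0.38, SAMtools 1.9 and FastQC 0.11.7. The sources used here do not give their settings, so reads of overlapping genes may be shared.

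CPM is a count divided by the column total. Levels were compared between genes per kb of merged GENCODE M21 exons, where all 31 genes had identical coordinates. Genes kept by filterByExpr (15706 genes, 99.9% of counts) were scaled by TMM (factors 0.986 to 1.01). The robust quasi-likelihood test of edgeR 4.0.16 (R 4.3.3) was used, p-values were adjusted over all genes by Benjamini-Hochberg, and calls were made at 0.05. Residual degrees of freedom were 2, the prior added 3.77, and the fit had a biological coefficient of variation of 0.442. Each SE was the log2 fold change divided by the root of the F statistic. Separate animals are not stated, so a p-value here reflects only how far these libraries spread. On simulated counts of 15287 genes with 1 mock and 3 knockout libraries, edgeR recovered 14 of 100 4-fold and 95 of 100 16-fold differences, with 3 false calls. DESeq2 1.42.0 recovered 29 of 100 4-fold and 92 of 100 16-fold differences, with 44 false calls among 15706 genes. Pairs of libraries differed far beyond sampling noise (chi-square per gene 31.5 to 58.2). The lowest value was that of mock against c15 and the highest that of c15 against c22, with c11 against c15 at 42.4. By this measure c15 was closer to mock than to c11 or c22.

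The family, the lists and the tests were chosen with earlier results of these data known. Named were all 31 genes, Hif1a and, from each group of partners, up to 2 highest and 2 lowest fold changes among genes that average at least 1 CPM. The chromosome 5 neighbours, Snhg18, Gm32618 and Commd10 were chosen after values were seen. Alternatives were RLE size factors, no filter, DESeq2 and leaving out each knockout library. Chosen after seeing the data were edgeR without its small-count correction and TMM-scaled CPM.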

Additional observations from a re-analysis of the deposited data

How the results depend on the processing

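No paired analysis was possible because the mock group has 1 library. Over all genes, edgeR called 1 lower and 0 higher gene, against 4 lower with no filter, 0 lower without its small-count correction and 0 when any knockout library was left out, while DESeq2 called 66 lower and 48 higher. In the family, DESeq2 called 1 gene lower (Sema3d), where edgeR called 0 under each setting run. Among signalling partners, DESeq2 called 2 higher (Rnd1 and Mras). Genes with all knockout libraries below mock numbered 10 to 16 when a library was left out, and those above mock 3 to 8. The median log2 fold change of the family ran from -0.47 to -0.03 and that of the partners from 0.14 to 0.17 when a library was left out. No gene of the family changed sign under RLE size factors, no filter, DESeq2 or edgeR without its small-count correction, and 6 did when a library was left out, with no value for Sema6d without c11, where it did not pass the filter. The fitted log2 fold changes then ran from -1.16 to 0.12 for Nrp2, from -0.51 to 0.015 for Plxna3, from -0.25 to 0.11 for Plxnb1, from -0.83 to 1.01 for Plxnc1, from -1.44 to 0.20 for Sema3c and from -0.65 to 0.64 for Sema6a. Vegfa ran from -0.40 to 0.14 and Vegfb from -0.035 to 0.087. Without c15, log2 fold changes were -1.49 for Sema7a (-0.86 with all libraries), -1.99 for Farp2 (-1.17), 1.42 for Flt1 (2.68) and -1.83 for Pcsk6 (-1.05). The cause was not tested. Depth limits the genes with under 20 counts per library, such as Sema3g and Plxnb3.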
